A study of Laguncularia racemosa with 22 samples.

Results

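The step from 3 to 12 h was examined in leaves of the P seedlings of the white mangrove *Laguncularia racemosa*, a salt-tolerant tree of warm coasts. The 5 libraries concerned, 3 of P at 12 h and 2 of P at 3 h, were taken by letter and time from the sample titles, out of 22 libraries in the series. All were made from leaf RNA of wild-type seedlings 8 weeks old, raised at 30 °C by day and 28 °C by night with 16 h of light and 8 h of dark. The labels of P name freezing temperature, given in the treatment text as 0 °C, for 12 h in one group and for 3 h in the other. Libraries of other groups serve as a comparison. One set is Q at 12 h and at 3 h, with 3 libraries each, whose labels read control although the treatment text that stands with them is the same as for P. The other set is P at 36 h, with 2 libraries taken after 12 h of cold and 24 h of recovery, and P at 0 h, with 3. Seeds were collected in more than one place, and what P and Q stand for is not stated. Single libraries are written as letter, time and replicate number, so that P_3h_2 is replicate 2 of P at 3 h. A replicate 1 of P at 3 h was not analysed here.

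Plants of warm shores are injured by chilling well above the freezing point of their tissue. In plants that have been studied closely, such as *Arabidopsis*, the cold response runs in waves: transcription factors of the CBF family and other early regulators are induced within the first hours, and genes for osmoprotectants, membrane lipid remodelling and protective proteins follow over many hours, while photosynthetic and growth genes tend to decline. Leaf transcripts also follow the circadian clock and the light period, so samples taken hours apart differ in these as well. The deposited table lists assembled genes by ID and does not pair the IDs with names. No gene could therefore be placed in any of these pathways, and the label leaf could not be checked against marker genes.

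The libraries were of similar depth. Total counts were 13743563 to 15683481 in P at 12 h and 14989005 to 15586458 in P at 3 h, and 1 CPM (a count scaled to the library's total) stood for 13.0 to 14.5 counts at 12 h and 14.4 to 15.2 counts at 3 h. Between 16102 and 16424 genes had at least 10 counts in a 12 h library, against 16442 to 16582 in a 3 h library. The mean absolute difference in log2 CPM per gene was 0.80 to 0.90 between a 12 h and a 3 h library. It was 0.49 to 0.63 between the 3 libraries of 12 h, with P_12h_1 the farthest from the others, and 0.48 between the 2 of 3 h. RNA was extracted plant by plant, but whether the libraries of a time are different plants is not stated. The p-values therefore measure only the spread between libraries of a group, pooled over all 22 libraries, which may be technical.

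Between 3 and 12 h, 6056 genes changed in P, 27.9% of the 21694 tested: 2778 were higher at 12 h, 12.8% of those tested, and 3278 were lower, 15.1%. A call here means that edgeR's quasi-likelihood test gave an adjusted p (Benjamini-Hochberg) under 0.05. The median log2 change was 0.99 among the genes that rose and -1.10 among those that fell, and 0.00044 over all genes tested. The same fit called 1142 genes between 0 and 3 h and 6963 between 0 and 12 h, comparisons that share the 3 h or the 12 h libraries with this step. In bulk leaf RNA, a change in the cells that make up the sample and a change in RNA per cell cannot be told apart. Hours of cold and time since the start differ together between 12 and 3 h and cannot be told apart within P, and the clock times and light at sampling are not given in the sources used here.

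The number of calls leaned on the 2 libraries of 3 h. Leaving out P_3h_2 gave 4012 calls, 3861 of them shared with the full set, and leaving out P_3h_3 gave 3447, of which 3366 were shared. No gene called in the full set was called in the opposite direction when any 1 of the 5 libraries was left out. Those fits reuse the remaining libraries, so a reversal was unlikely from the start and its absence says little.

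Most changes were moderate, and a smaller group was large. A change of at least 2-fold was seen in 1376 of the genes that rose and in 1830 of those that fell, of at least 4-fold in 550 and 714, of at least 8-fold in 206 and 338, and of at least 16-fold in 64 and 135. Among the genes that rose, the middle of the distribution ran from a log2 change of 0.60 at the lower quartile to 1.76 at the upper quartile. Among the genes that fell, it ran from -0.73 to -1.87. The libraries of the 2 times did not overlap in 2751 of the 2778 genes that rose and in 3246 of the 3278 that fell, where 51.7% of all genes tested were free of overlap.

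**Figure D1:**
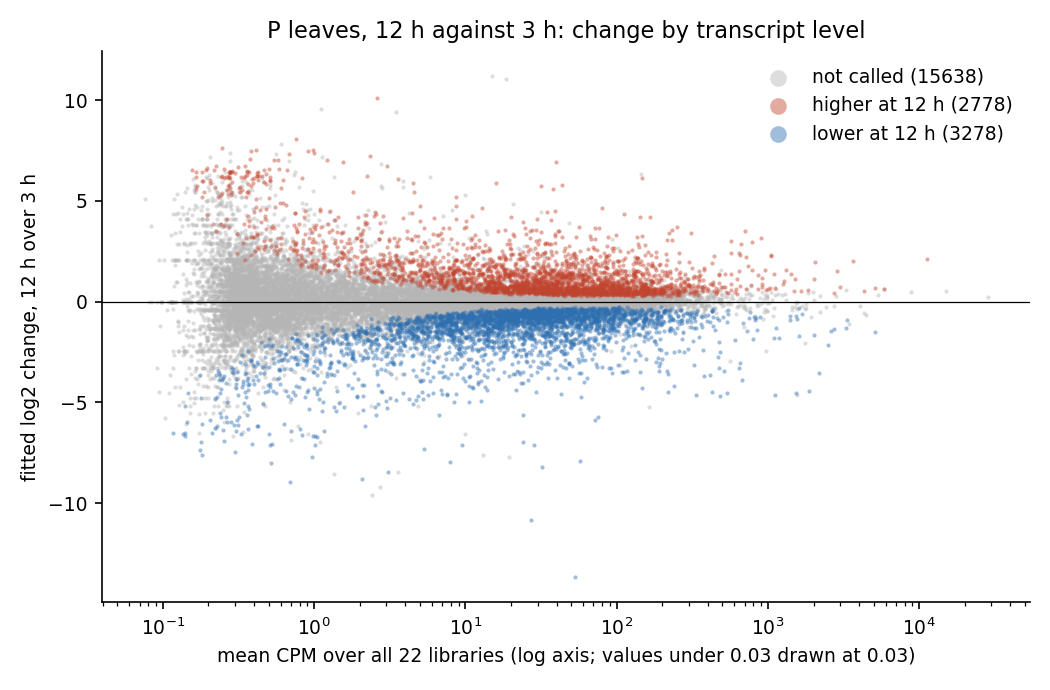
Fitted log2 change from 3 to 12 h in P (vertical axis, positive where 12 h is higher) against the mean CPM over all 22 libraries (horizontal log axis), 1 point per gene tested. Red points are the 2778 genes called higher at 12 h, blue the 3278 called lower, and grey the genes not called, and the smallest changes called lie at abundant genes.

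Calls were more frequent among abundant transcripts, and the balance of direction differed with level. Of genes with a mean of 1 to 10 CPM over all libraries, 8.63% were higher and 15.1% lower at 12 h. From 10 to 100 CPM the shares were 17.8% higher and 21.8% lower. From 100 to 1000 CPM the order turned, with 28.7% higher and 18.7% lower, and this order held with RLE scaling (30.6% and 18.2%) and with library totals alone (24.3% and 21.3%). In Q the same class was 26.5% higher and 26.8% lower at 12 h, so the order did not turn there. For the 86 genes at 1000 CPM or more the shares were 26.7% higher and 24.4% lower, and with library totals alone 23.3% higher and 26.7% lower. Below 1 CPM 3.50% were higher and 3.47% lower, and the median standard error of a log2 change was 1.1, against 0.15 from 100 to 1000 CPM. A change of the size common in abundant genes was therefore not detectable among the rarest ones at this depth.

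**Figure D2:**
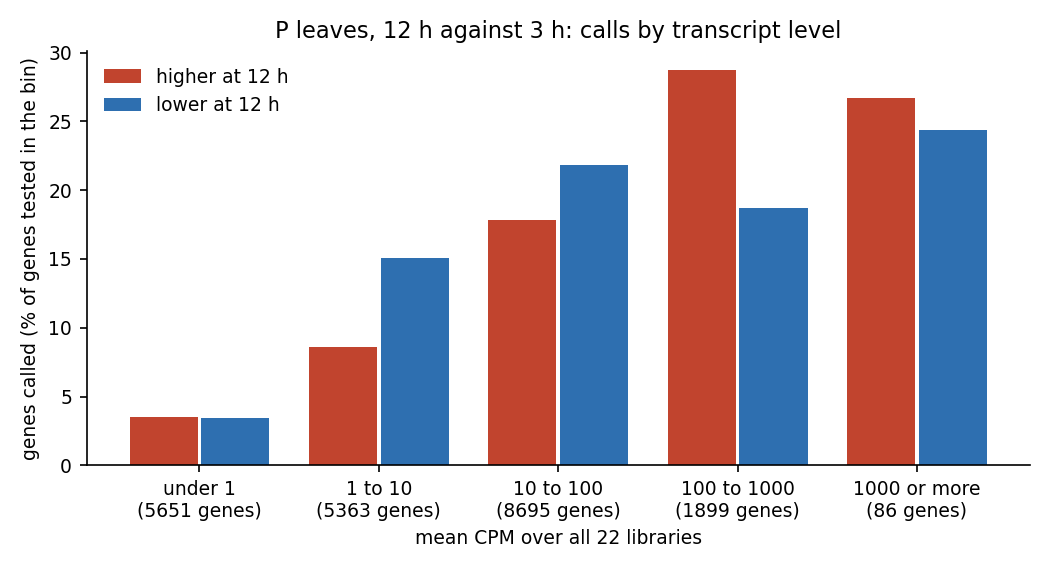
Share of genes called higher (red) or lower (blue) at 12 h than at 3 h in P, in percent of the genes tested in each class of mean CPM over all 22 libraries. From 1 to 100 CPM the lower calls are the more frequent, and from 100 to 1000 CPM the higher calls reach 28.7% against 18.7%.

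For some genes the size of the change could be bounded. For 7724 genes, 35.6% of those tested, the 95% interval of the change lay within 2-fold in either direction. Of these, 6268 were not called and 1456 were called. Genes at 0 counts in all 5 libraries get an interval from 0 to 0 and are counted among the 7724, so not all of them were detected here. For 9370 further genes no change was called but the interval reached past 2-fold, so a change of that size could not be told from none.

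The gene with the largest log2 change upward, among those at 5 CPM or more over the 5 libraries, alone in their assembly cluster and with no overlap, was TRINITY_DN10434_c0_g1. Its levels were 99.8, 109 and 141 CPM in the libraries of P at 12 h, against 0.855 and 1.04 CPM at 3 h. The lowest 12 h library stood far above both 3 h libraries, which rested on 13 and 15 counts. The log2 change was 6.93 with a standard error of 0.68 and an adjusted p of 1.47e-06 in edgeR. In Q the same transcript was at 97.6 ± 36.1 CPM at 12 h and 2.66 ± 1.11 CPM at 3 h (SD, n = 3 each), a log2 change of 5.19.

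The largest gain in CPM among those genes belonged to TRINITY_DN434_c9_g1. It was at 7690, 6340 and 7160 CPM in the 12 h libraries, against 1910 and 1640 CPM in the 3 h libraries, and moved to rank 8 of all genes at 12 h, against rank 52 at 3 h. The groups did not overlap, which the choice of the gene required. The log2 change was 1.99 with a standard error of 0.22 and an adjusted p (edgeR) of 1.66e-06. Over the whole course in P it averaged 967 ± 200 CPM at 0 h (SD, n = 3), 1780 ± 193 CPM at 3 h (SD, n = 2), 7060 ± 678 CPM at 12 h (SD, n = 3) and 3890 ± 182 CPM at 36 h (SD, n = 2). In Q it was at 7710 ± 514 CPM at 12 h and 2500 ± 633 CPM at 3 h (SD, n = 3 each).

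TRINITY_DN10002_c0_g1 had the largest log2 change downward. It had 0 counts in each of the 3 libraries at 12 h, against 2011 and 1004 counts, or 132 and 69.8 CPM, in the libraries at 3 h. Against a floor of 3 counts over the 12 h group it was at least 1380-fold lower (adjusted p 7.69e-06, edgeR). The transcript remained at 0 counts in both P libraries of 36 h. In Q it had 0 counts in all 3 libraries at 12 h and 91.8 to 97.0 CPM at 3 h.

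The largest loss in CPM was that of TRINITY_DN3845_c0_g1, which held rank 23 at 12 h and rank 4 at 3 h. Its levels were 3080, 2940 and 2120 CPM in the 12 h libraries, against 7240 and 8280 CPM at 3 h. The log2 change was -1.52 with a standard error of 0.29 and an adjusted p of 0.000639 in edgeR, and the adjusted p of a change beyond 2-fold was 0.165. The 0 h libraries of P, at 5270, 7720 and 3560 CPM, spread more widely than those of 3 or 12 h. In Q it averaged 3180 ± 500 CPM at 12 h and 7430 ± 2100 CPM at 3 h (SD, n = 3 each).

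**Figure D3:**
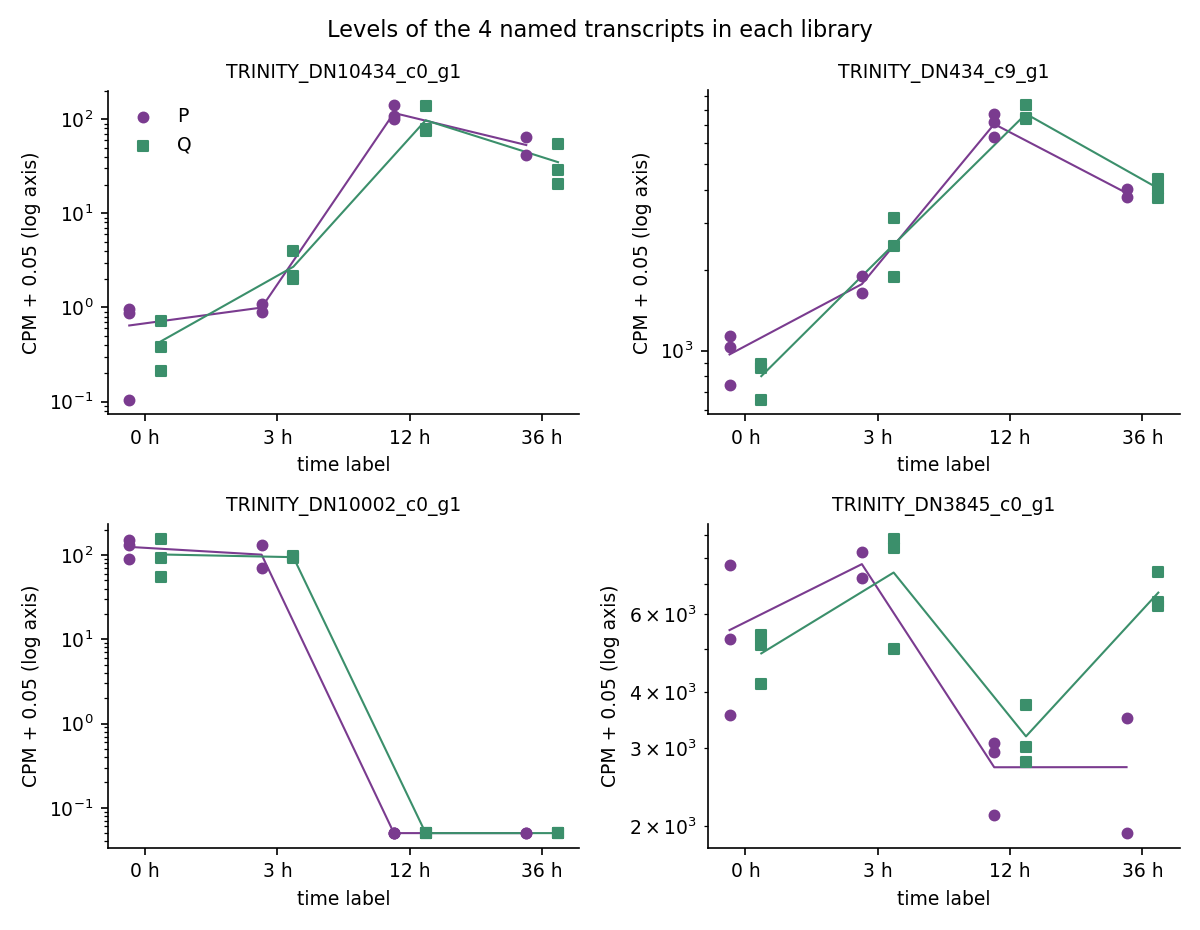
Level of the 4 named transcripts in each of the 22 libraries, as CPM + 0.05 on a log axis, by time label, with P as circles and Q as squares and lines through the group means. In P, the 12 h points lie above the 3 h points for both transcripts of the upper row and below them for both of the lower row, and TRINITY_DN10002_c0_g1 is at 0 from 12 h on.

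The 10 largest rises and the 10 largest falls that met the same conditions are given with their levels at the other times. The 10 that rose stood at a mean of 10.2 to 342 CPM at 12 h, against 0.238 to 18.5 CPM at 3 h, with log2 changes of 4.16 to 6.93 and adjusted p-values of 2.09e-10 to 0.00393 in edgeR. At 0 h they were at 0.0356 to 10.9 CPM, so all 10 were far below their 12 h level at both early times. In 1 of these 10 the mean at 0 h was at least 4-fold below that at 3 h, and in 4 it was within 2-fold. One of them was at 352, 250 and 291 CPM in the 12 h libraries and at 5.66 and 2.71 CPM in the 3 h libraries. It held 289 CPM on average at 36 h.

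The 10 that fell stood at 0 to 2.43 CPM at 12 h, against 13.0 to 145 CPM at 3 h, with adjusted p-values of 1.55e-08 to 0.0181 in edgeR. In 6 of these 10 the mean at 0 h was at least 4-fold below that at 3 h, and in 3 it was within 2-fold. The 3 h libraries that enter this count also entered the choice of the genes. One of the 6 was at 12.1 CPM at 0 h, at 50.2 and 54.4 CPM in the 3 h libraries, at 0.924, 0.379 and 1.58 CPM in the 12 h libraries and at a mean of 601 CPM at 36 h. Another was at 3.16 CPM at 0 h, at 25.7 and 73.1 CPM in the 3 h libraries, at 0.077, 0.303 and 0.620 CPM in the 12 h libraries and at 11.5 CPM at 36 h. The 3 h libraries differed from each other by more in the second gene than in the first. The 601 CPM of the first was the highest 36 h mean of the 10, whose median was 7.40 CPM. At 36 h against 0 h in P, 2 of the 10 were called higher and 3 lower, where 19.1% and 17.7% of all genes tested were. In Q all 10 rises and all 10 falls were called in the same direction, where 16.3% of all genes tested were called higher and 18.5% lower.

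The most abundant transcripts shifted as well. Of the 20 most abundant genes at 12 h, 10 had risen since 3 h and 0 had fallen, and of the 20 most abundant at 3 h, 4 rose and 7 fell. Ranking by the same libraries favours such a split: of the 86 genes with a mean of 1000 CPM or more over all libraries, 26.7% were higher and 24.4% lower, and of all genes tested 12.8% and 15.1%. The 2 lists shared 12 genes. The most abundant gene was the same at both times, at 34450 ± 4870 CPM at 12 h (SD, n = 3) and 29390 ± 1860 CPM at 3 h (SD, n = 2), a log2 difference of 0.23 with a 95% interval of -0.19 to 0.65 that did not pass the test. The 10 most abundant genes of a library held 12.4% to 13.4% of its counts at 12 h and 8.76% to 9.53% at 3 h.

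The largest gain in CPM over all genes was made by a gene that shares its assembly cluster with another ID. It was at 23500, 28200 and 33800 CPM in the 12 h libraries, against 5550 and 7810 CPM at 3 h, a log2 change of 2.09 (adjusted p 2.94e-05, edgeR). Reads of such a gene may be split between IDs of the cluster. In Q it was at a mean of 19600 CPM at 12 h and 10100 CPM at 3 h. Among abundant genes that fell, one was at 94.1, 143 and 133 CPM at 12 h, against 2920 and 2860 CPM at 3 h, a log2 change of -4.55 (adjusted p 7.68e-11, edgeR). It had been at 3540 CPM at 0 h and was at 55.2 CPM at 36 h, so both early times were high and both late times low.

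Few transcripts went fully on or off. In P, 7 genes had 0 counts in both 3 h libraries and at least 10 counts in each 12 h library, and 17 had 0 counts in all 3 libraries of 12 h and at least 10 in each of 3 h. Of these, 6 of the 7 and 15 of the 17 were called, where 27.9% of all genes tested were called and the same libraries chose the genes. The lower bounds of the fold had a median of 13.8 for the genes switched on and 21.1 for those switched off, against the floor of 3 counts over the group. In Q 5 of the 7 were called higher and 6 of the 17 lower, where 16.3% of all genes tested were called higher and 18.5% lower. By the rule of 0 and 10 counts itself, 0 of the 7 and 2 of the 17 were also switched in Q. Over all 54696 IDs only 6 were switched on and 10 off in Q by that rule, so little overlap was possible. Only 2 of the 7 had 0 counts in every P library of 0 h. The counts depended on every library, since leaving out a library eases the condition: the 24 genes became 42 without P_12h_1, 41 without P_12h_2, 45 without P_12h_3, 85 without P_3h_2 and 66 without P_3h_3.

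The genes that changed held a large part of the counts. The 2778 genes that rose took 33.6% to 35.0% of the counts in the 12 h libraries of P, against 17.2% to 18.0% in the 3 h libraries. The 3278 that fell took 10.7% to 11.04% at 12 h and 26.4% to 26.5% at 3 h. These libraries chose the genes, so the 2 shares are a description. The Q libraries are on neither side of this comparison and bore on the choice only through the filter, the scaling and the pooled spread. In them the genes that had risen in P held 33.3% to 34.2% of the counts at 12 h and 18.4% to 20.7% at 3 h, and those that had fallen held 10.5% to 11.2% and 23.3% to 25.4%. The groups did not overlap. At 36 h in P the risen genes were at 25.7% to 26.4% and the fallen genes at 15.3% to 16.7%. At 0 h in P they were at 16.2% to 18.5% and 25.1% to 25.8%. The shift was similar in Q, with 26.5% to 29.5% and 15.0% to 16.6% at 36 h. At 0 h in Q the shares were 16.0% to 17.8% and 24.8% to 27.4%, so this is not particular to P.

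**Figure D4:**
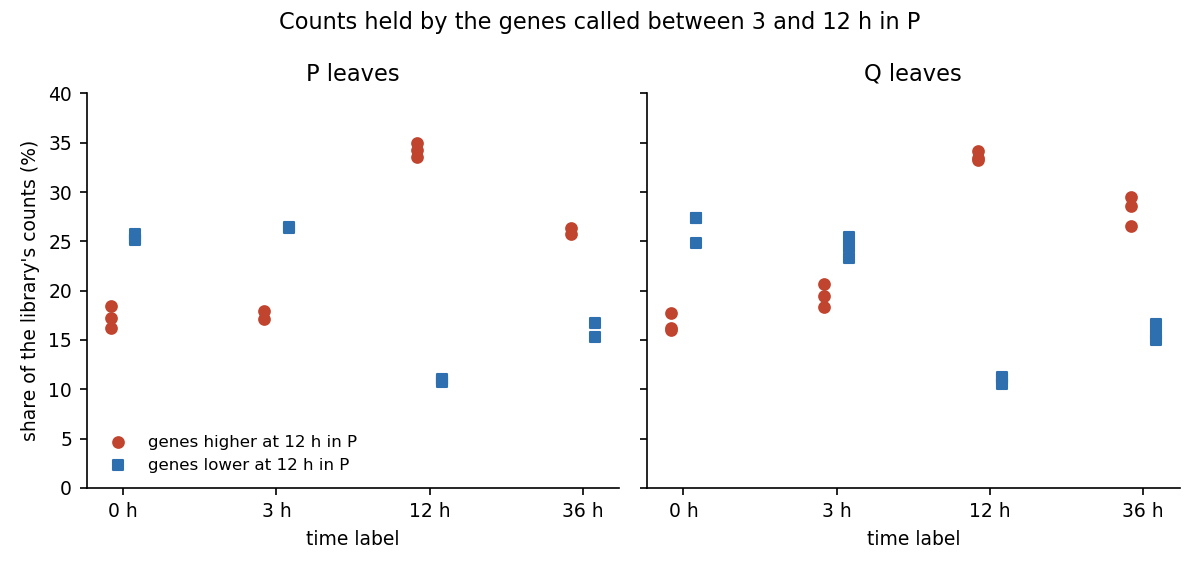
Share of each library's counts, in percent, held by the genes called higher (red circles) and lower (blue squares) at 12 h than at 3 h in P, for all 22 libraries by time label. In both letters the red points are highest at 12 h, at 33.3% to 35.0%, and the blue points lowest, at 10.5% to 11.2%.

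The same interval was then followed in Q, which shares no library with P. There 3541 genes were higher and 4006 lower at 12 h than at 3 h, 34.8% of those tested. Of the 2778 genes that rose in P, 1964 also rose in Q, 70.7% of the P list and 55.5% of the Q list, where 16.3% of all genes tested rose in Q. Of the 3278 that fell in P, 2453 fell in Q, 74.8% of the P list and 61.2% of the Q list, where 18.5% of all genes tested fell in Q. Of the P genes with a rise of at least 2-fold 82.5% rose in Q, and of those with a fall of at least 2-fold 75.5% fell.

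Calls in opposite directions were few. They numbered 9 in all, with 4 genes higher in P and lower in Q and 5 the other way. This count was 18 without P_12h_1, 5 without P_12h_2, P_12h_3, Q_3h_2 or Q_12h_1, 3 without P_3h_3 or Q_12h_2, and 0 without P_3h_2 or Q_3h_3. Across the 21694 genes the log2 change in P and that in Q correlated with a Pearson r of 0.61 (Spearman rho 0.64), given as a description without a p because genes are not independent of each other. The Pearson r was 0.24 with no filter on low counts and 0.76 with a stricter one.

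The changes in P that were not called in Q mostly leaned the same way. Of the 810 genes that rose in P and were not called in Q, 706 had a positive log2 change there, and of the 820 that fell, 701 had a negative one. The median log2 change of the genes that rose in P was 0.99 in P and 0.76 in Q, and of those that rose in Q 0.81 in P and 1.10 in Q. The letter that chose the genes thus showed the larger median in either case.

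**Figure D5:**
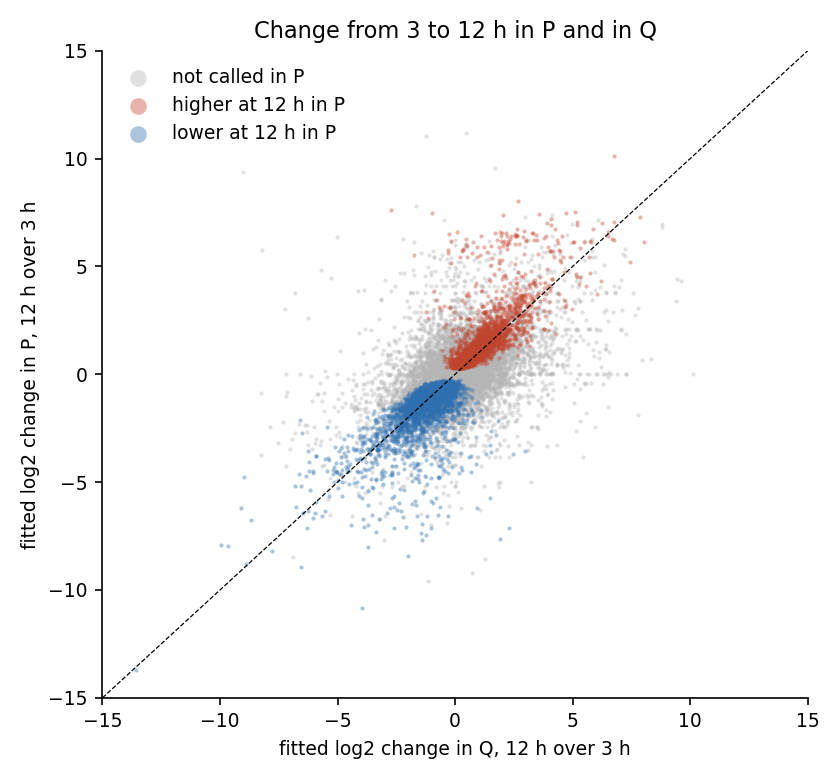
Fitted log2 change from 3 to 12 h in P (vertical axis) against that in Q (horizontal axis), 1 point per gene tested, with the dashed line at equal change. Genes called higher in P are red, genes called lower blue and others grey, and most coloured points lie on the same side of 0 in Q as in P.

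Whether the change from 3 to 12 h differed between P and Q was tested directly, as an interaction. It differed for 3 genes, 0.0138% of those tested, and in each the change was lower in P than in Q. Before adjustment 2555 genes had a p under 0.05. For 8216 genes the 95% interval of the difference lay within 2-fold, 3111 of them among the 6056 called in P, while for the rest the interval reached past 2-fold. The 3 genes lie outside the rule for named genes and were looked at for this result, and no ID is given for them. The count became 1 without P_3h_2, P_12h_2, Q_3h_2 or Q_3h_3, 5 without P_3h_3 or Q_3h_1, 10 without Q_12h_3 and 93 without P_12h_1. DESeq2 gave 231.

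In the first of these genes P was at 20.7, 23.2 and 25 CPM at 12 h, against 156 and 105 CPM at 3 h, while Q was at 26.1, 22.4 and 24.1 CPM at 12 h and 22.6, 26.2 and 29.1 CPM at 3 h. The change in P minus that in Q was -2.40 on the log2 scale, with a standard error of 0.27 and an adjusted p of 0.000613 in edgeR. Of the libraries of 0, 3 and 12 h, those of P at 3 h alone stood high, with 20.3, 36.4 and 27.0 CPM in P at 0 h, and P at 36 h was at 41.2 and 55.5 CPM. The second gene rose in Q, to 5.09, 5.29 and 8.44 CPM at 12 h, against 0.236, 0.470 and 0.348 CPM at 3 h. In P it was at 3.39, 1.21 and 1.38 CPM at 12 h and 3.16 and 2.15 CPM at 3 h, which did not pass the test. The difference was -4.55 with a standard error of 0.68 and an adjusted p of 0.0225 in edgeR.

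The third gene fell in both letters. It was at 3.85, 5.45 and 5.16 CPM at 12 h in P, against 58.8 and 50.1 CPM at 3 h, and at 6.06, 6.47 and 7.31 CPM at 12 h in Q, against 27.3, 26.5 and 22.8 CPM at 3 h. The log2 change was -3.49 in P and -1.95 in Q, a difference of -1.55 with a standard error of 0.24 and an adjusted p of 0.0263 in edgeR. None of the 4 named transcripts was called in this test, and for TRINITY_DN434_c9_g1 the difference was 0.36 with a standard error of 0.27.

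The last question was where the genes of this step stood after recovery. The 36 h and 0 h libraries of P are on neither side of the step from 3 to 12 h, though they share its filter, scaling and pooled spread. Of the 2778 genes that rose from 3 to 12 h, 1172 (42.2%) were higher and 285 (10.3%) lower at 36 h than at 0 h, where 19.1% of all genes tested were higher and 17.7% lower. Of the 3278 that fell, 1395 (42.6%) were lower and 414 (12.6%) higher at 36 h than at 0 h. The remaining 1321 and 1469 genes were not called between 36 and 0 h. The 42.2% and the 42.6% depended on single libraries. Both were lower with either 36 h library of P left out, and higher with either 3 h library of P left out.

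The shares were also taken by the size of the step. Of the rises of at least 4-fold, 61.5% were higher at 36 h than at 0 h and 2.00% lower, and of those of at least 16-fold 71.9% were higher. Of the falls of at least 4-fold, 35.0% were lower at 36 h than at 0 h and 20.9% were higher, and of those of at least 16-fold 28.9% were lower and 25.9% higher. Among the 37 falls of at least 32-fold the shares were 43.2% lower and 24.3% higher, so the share lower did not decline steadily with size. The classes are nested, and no test was made of a difference between rises and falls. The median log2 difference between 36 and 0 h was 2.07 for the rises and -0.63 for the falls of at least 4-fold, and -0.0018 for all genes tested.

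Genes of the same assembly cluster did not always move together. An assembly cluster groups sequences that share stretches, such as close paralogs, alleles or splice forms that the assembler kept apart, and 29.5% of the 54696 IDs share a cluster with another ID. There were 316 clusters with at least 2 genes called between 3 and 12 h in P. Of the 4943 genes in clusters with 2 or more genes tested, 28.6% were called, against 27.9% of all genes tested. In 196 of the 316 clusters the calls had the same direction, and in 120, or 38%, both directions occurred. Over all genes called in P 45.9% were higher, so genes of different clusters would often differ in direction too. The 38% was not tested against that. In 67 of these 120 clusters at least 1 gene that rose and 1 that fell were called the same way in Q, which is 55.8% of them. Over all genes called in P, 70.7% of those higher and 74.8% of those lower were called likewise in Q, and nothing particular to these clusters is read from the count. The 120 became 61 without P_3h_2 and 42 without P_3h_3.

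In one such cluster a gene was at 178, 82.1 and 81.0 CPM at 12 h, against 28.4 and 21.3 CPM at 3 h, while another gene of it was at 41.3, 45.2 and 38.9 CPM at 12 h, against 195 and 209 CPM at 3 h. Their log2 changes were 2.19 and -2.27, and 2.08 and -2.19 in Q. In another cluster a gene stood at 90.8, 84.0 and 108 CPM at 12 h, against 1.51 and 2.02 CPM at 3 h, beside one at 40.3, 50.6 and 57.4 CPM at 12 h and 99.1 and 72.9 CPM at 3 h. The second of this pair was not called in Q, with means of 61.8 CPM at 12 h and 59.4 CPM at 3 h. Reads that fit several genes of a cluster can be split between them, and the part of this in opposite calls was not tested.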

How the data were processed

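The authors deposited raw counts, 1 whole number per gene and library. FastQC, HISAT2 and featureCounts were used per the submitters' processing notes. Versions and the sequences aligned to are not given in the sources used here. The gene IDs look like those of Trinity, a transcript assembler. All 22 value columns were matched by letter, time and replicate number, with 0 left over.

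The tests used edgeR 4.0.16 (R 4.3.3): filterByExpr with 8 groups and a minimum count of 10, TMM scaling, and the robust quasi-likelihood test with the spread pooled over all 22 libraries. Adjusted p-values are Benjamini-Hochberg over the 21694 genes tested. Intervals are at 95%, from the quasi-likelihood standard error and t quantiles. CPM is per TMM-scaled library size, with a prior count of 2 for the log2 CPM of distances. Genes at 0 counts over a group were set against a floor of 3 counts, which covers counting error only. A chi-square per gene between the libraries of a time was 15.0 to 31.1, above sampling noise. Each library was counted as a replicate, though such a value does not show that the libraries are different plants.

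Named are the genes with the largest log2 change and the largest CPM difference in each direction, among genes called, alone in their assembly cluster, at 5 CPM or more over the 5 libraries and with no overlap. Comparisons and lists were chosen with earlier results of these data known. Other examples were picked after their values were seen. Alternatives included DESeq2 1.42.0.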

Additional observations from a re-analysis of the deposited data

Results flagged for a closer look

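The change from 3 to 12 h differed between P and Q by a direct test in 3 genes, whose libraries are described above. The change in P minus the change in Q was -2.40, -4.55 and -1.55 on the log2 scale, and edgeR's quasi-likelihood test gave adjusted p-values of 0.000613, 0.0225 and 0.0263. The first of these shares its assembly cluster with another ID.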

How the results depend on the processing

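With any 1 of its libraries left out, the calls between 12 and 3 h were 3447 to 5419 in P and 6268 to 6701 in Q, those shared in direction 2848 to 4244, those different between letters 1 to 93, clusters with opposite calls 42 to 109, genes switched on or off 41 to 85, and genes called from 0 to 36 h in P in the direction of the step 1751 to 2428, against 2567 with all. A change tested beyond 2-fold with glmTreat in edgeR was called for 1078 genes in P and 1446 in Q, with 686 shared, 1 cluster with opposite calls and 0 differences between letters (551 at an unadjusted p under 0.05). The 3 differences between letters became 5 with library totals alone, without P at 36 h or with counts summed over clusters. They became 1 with only the compared libraries, 60 with no filter and 231 with DESeq2, which gave no adjusted p for 5488 genes. The cause was not tested. Asking for 5 counts gave 98 switched genes, and 20 counts 8, in place of 24. The replicate block gave 5882 calls in P over all libraries and 5491 within letters, with 7 and 1 differences between letters. Whether replicate numbers pair the libraries could not be decided. Same-numbered libraries of 12 and 3 h had deviations from their group means correlated at -0.11 and -0.14 in P. In Q the values were -0.0026, -0.036 and 0.0026. Deviations within a group sum to 0, and those of the 2 libraries of P at 3 h mirror each other. With library totals alone 38.8% of the P calls were higher, in place of 45.9%. TRINITY_DN3845_c0_g1 kept its direction in 18 alternatives and its call in 17, and the other 3 named genes kept both in 18. A gene at 1 CPM rests on 13.0 to 15.2 counts, which limits what could be called below that level.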
